A study of Mus musculus with 2 samples.

Results

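The transcription factor genes *Spi1*, *Cebpa*, *Cebpb*, *Irf8*, *Gfi1* and *Ikzf1* were followed cell by cell in chimeric mouse embryos that carried *Gata1*- cells beside wildtype cells. They are 6 of the 29453 gene columns of the deposited spliced and unspliced count tables, taken by name as a list of myeloid regulators, with no threshold on a measured value, although the list was drawn up with earlier results of these data known. *Spi1* encodes PU.1, an ETS family factor that drives the myeloid and lymphoid lineages and is known to antagonise GATA1, the main factor of red cell and platelet development. C/EBPα (*Cebpa*) acts with PU.1 in early granulocyte and macrophage commitment, and C/EBPβ (*Cebpb*) is its relative used in macrophages and stress responses. IRF8 (*Irf8*) binds DNA as a partner of PU.1 in monocytes and dendritic cells. GFI1 (*Gfi1*) is a zinc finger repressor that acts in neutrophil development and in stem cells. IKAROS (*Ikzf1*) is a zinc finger regulator of lymphoid cells that is also present in early blood cells and globin-producing cells. In the yolk sac, the first blood wave gives primitive red cells, macrophages and megakaryocytes, and red cells are normally low in PU.1.

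The tdTom+ fraction held cells from 1 male tdTomato-expressing ESC clone with a 38 bp frameshift deletion in exon 4 of *Gata1*, and the tdTom- fraction held the wildtype C57BL/6 host cells of the same embryos. Constitutive tdTomato was used only to sort the fractions. The 6 embryos were pooled before sorting, so that each fraction is 1 library with no replicate, and both fractions come from the same animals. The age label reads E8.5 for the tdTom+ sample and E8.6 for the tdTom- sample, while both sample titles and the study's methods give E8.5. Without a second library no test between the fractions was possible, and clone, library and genotype cannot be told apart. The intervals given below are 95% intervals and cover counting error only.

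The tables held 8981 tdTom+ and 9252 tdTom- barcodes with 167940767 and 157174026 spliced UMIs, and medians per cell of 17598 and 15996. The libraries shared 18 barcodes. After removal of called doublets, 1616 tdTom+ and 1477 tdTom- cells lay in blood sub-clusters (sub-clusters led by erythroid, blood progenitor, megakaryocyte or myeloid markers). A blood cell was counted as globin-expressing where 8 globin genes took over 0.694% of its spliced UMIs, which is the 99th percentile outside the haemato-endothelial clusters of the tdTom- library, and as an other blood cell below that. This gave 1039 tdTom+ and 1404 tdTom- globin-expressing cells, and 577 and 73 other blood cells. In the tdTom+ library the same percentile was 0.0941%, and the higher limit was used for both. Median globin share of the tdTom+ other blood cells was 0.112%. This class thus holds tdTom+ cells with more globin than that lower percentile. Only higher limits were tried as alternatives. Median globin share in the globin-expressing cells was 2.18% in tdTom+ and 9.53% in tdTom-, so the class is not at one stage in both fractions. Their sub-clusters also differed: most tdTom- cells of this class lay in 4 erythroid-like sub-clusters (numbers 1, 3, 4 and 6), while most tdTom+ cells lay in blood progenitor-like sub-clusters (numbers 0, 2, 5 and 8). Sub-clusters 0, 2 and 8 each had 4 erythroid and 4 blood progenitor markers raised. This tie was settled by the markers among their leading genes. Of the other blood cells, 190 of 577 in tdTom+ and 24 of 73 in tdTom- were in the myeloid-like sub-cluster, and 2 and 40 were in the megakaryocyte-like one. These names were rebuilt here, and by its own cell types the paper reports more megakaryocyte-signature cells among the *Gata1*- cells. Levels are given as CPM, the spliced UMIs of a gene per 1000000 spliced UMIs of the same cells, beside the share of cells with a UMI.

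*Gata1*, on chromosome X (chrX:7959260-7978071, minus strand, GRCm38, ENSMUSG00000031162), was first examined in both fractions. In globin-expressing cells tdTom+ held 31.6 CPM of it and tdTom- 133 CPM, and in other blood cells 18.6 and 106 CPM. Of its UMIs in blood cells, 58.4% were unspliced in tdTom+ and 8.11% in tdTom-. In the unspliced layer the level ran the other way, at 355 CPM of unspliced UMIs in tdTom+ and 108 in tdTom- globin-expressing cells. The lower spliced level goes with the labels, although reads of the 3' end do not show the deletion in exon 4 itself.

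In GRCm38, *Spi1* (ENSMUSG00000002111) lies at chr2:91082390-91115756 on the plus strand, with at most 5 exons in a transcript. *Cebpa* (ENSMUSG00000034957, chr7:35119293-35121928, plus), *Cebpb* (ENSMUSG00000056501, chr2:167688915-167690418, plus) and *Irf8* (ENSMUSG00000041515, chr8:120736358-120756694, plus) follow, and *Gfi1* (ENSMUSG00000029275) is at chr5:107716657-107726036 on the minus strand. *Ikzf1* (ENSMUSG00000018654) is at chr11:11685003-11772926 on the plus strand and is the longest of the 6 genes, at 87924 bases. *Cebpb* has 1 exon, so no unspliced molecule of it can be recognised by an intron.

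For *Cebpa*, *Cebpb* and *Irf8* the 250 bases before the start site are given here, from RefSeq (GRCm38.p6), because these members differed most by *Spi1* in the other blood tdTom+ cells described further on, before sub-clusters were taken into account. They are chr7:35119043-35119292 for *Cebpa*, chr2:167688665-167688914 for *Cebpb* and chr8:120736108-120736357 for *Irf8*, all on the plus strand. Capitals mark the ETS core GGAA, read on both strands (TTCC on the other strand), the 4 bases at the centre of sites bound by PU.1 and its relatives.
Cebpa: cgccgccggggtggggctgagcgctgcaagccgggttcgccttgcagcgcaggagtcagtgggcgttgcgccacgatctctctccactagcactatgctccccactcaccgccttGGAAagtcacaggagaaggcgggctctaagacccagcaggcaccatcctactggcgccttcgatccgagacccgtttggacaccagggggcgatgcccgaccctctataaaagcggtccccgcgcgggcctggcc
Cebpb: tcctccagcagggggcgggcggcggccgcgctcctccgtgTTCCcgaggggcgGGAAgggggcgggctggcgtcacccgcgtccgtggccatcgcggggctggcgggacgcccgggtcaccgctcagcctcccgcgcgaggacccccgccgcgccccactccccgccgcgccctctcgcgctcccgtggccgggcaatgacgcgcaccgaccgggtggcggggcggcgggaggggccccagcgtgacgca
Irf8: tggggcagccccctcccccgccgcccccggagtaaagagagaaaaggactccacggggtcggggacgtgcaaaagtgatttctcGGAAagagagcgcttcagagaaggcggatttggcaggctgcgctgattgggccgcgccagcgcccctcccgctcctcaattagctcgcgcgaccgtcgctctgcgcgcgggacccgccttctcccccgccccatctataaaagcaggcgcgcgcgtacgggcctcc

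The *Cebpa* window held 1 such core, 135 bases before the start. In *Cebpb* there were 2, at 210 and 197 bases before the start on opposite strands, and *Irf8* had 1 at 166 bases. A second *Irf8* window of RefSeq (chr8:120738389-120738638), not printed here, held 2. This core is short, and 93.4% of 32851 promoter windows of the same length held it. Neither the PU box GAGGAA, which contains the core and was found in 23.3% of all windows, nor a GATA word (AGATAA or AGATAG, and likewise TGATAA or TGATAG), found in 26.5%, occurred in the 8 windows of the 5 genes that RefSeq tables matched (*Cebpa*, *Cebpb*, *Irf8*, *Gfi1* and *Ikzf1*). A match or its absence describes these letters only.

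*Spi1* was the regulator that differed most between the fractions in globin-expressing cells. Globin-expressing cells of tdTom+ held it at 67.2 CPM (63.8 to 70.6; 1533 UMIs) and those of tdTom- at 1.21 CPM (0.836 to 1.71; 33 UMIs). The tdTom+ level is uneven within the class. Of the 1533 UMIs, 795 lay in 125 cells of sub-cluster 5 (275 CPM), a sub-cluster with 0 erythroid and 3 myeloid markers raised. At least 1 UMI was found in 44.2% of tdTom+ and 1.92% of tdTom- cells of the class, and in 21.0% and 0.438% once each cell was thinned to 5000 UMIs. Cells with neural markers, which should lack the gene and show the level of free RNA, gave 0.586 CPM in tdTom+ (18 of 1793 cells) and 0 UMIs in 2496 tdTom- cells (an upper limit of 0.0945 CPM), at median depths of 16686 and 15167 UMIs against 21483 and 18951 in the globin-expressing cells. The log2 fold between the fractions was 5.79 (5.29 to 6.33). Of the 3 members with at least 50 UMIs in this class (*Spi1*, *Cebpb* and *Ikzf1*), 1 was at least 2-fold higher in tdTom+ with an interval that excluded 0, beside 9.33% of all 9773 genes counted by the same rule (4.05% were lower). *Spi1* reached the minimum through tdTom+ alone, and a gene that passes only through the group where it is high had to differ, so the counts of called genes given here are descriptions and support nothing. Taking globin UMIs out of the denominator moved every fold of this class by -0.115, and the median over all genes from 0.19 to 0.07.

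Among the other blood cells *Spi1* was at 234 CPM in tdTom+ (225 to 243; 2836 UMIs; 74.0% of cells) against 119 CPM in tdTom- (101 to 139; 158 UMIs; 63.0% of cells). The log2 fold was 0.98 (0.75 to 1.22), just under the 2-fold limit. With the myeloid-like sub-cluster left out it was 1.71, with 40 of the remaining tdTom- cells but 2 of the tdTom+ cells megakaryocyte-like. Endothelial cells held 6.43 CPM in tdTom+ and 3.92 CPM in tdTom-, with overlapping intervals. Endothelial-like sub-cluster 12 gave a log2 fold of 3.43 (0.64 to 8.85) from 11 UMIs against 1. Sub-clusters 7, 9 and 11 gave 0.38, 0.10 and -0.31, with intervals that held 0. The order of *Spi1* from high to low was therefore other blood, globin-expressing, endothelial and neural in tdTom+, but other blood, endothelial, globin-expressing and neural in tdTom-, and within a fraction no neighbours had overlapping intervals.

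Over all blood cells together, 4 of the 5 members with enough UMIs were at least 2-fold higher in tdTom+, beside 13.4% of 10475 genes (3.52% were lower), but *Cebpa* and *Irf8* reached the minimum only through tdTom+. These were *Spi1* (4.22; 125 against 6.70 CPM), *Cebpa* (4.81; 103 against 3 UMIs), *Irf8* (2.57; 51 against 7 UMIs) and *Cebpb* (1.32; 26.5 against 10.6 CPM), with *Ikzf1* at 0.20. The mixture of classes differs between the fractions, 577 of 1616 and 73 of 1477 cells being other blood cells, and within the classes only *Spi1* or only *Cebpa* passed.

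**Figure D1:**
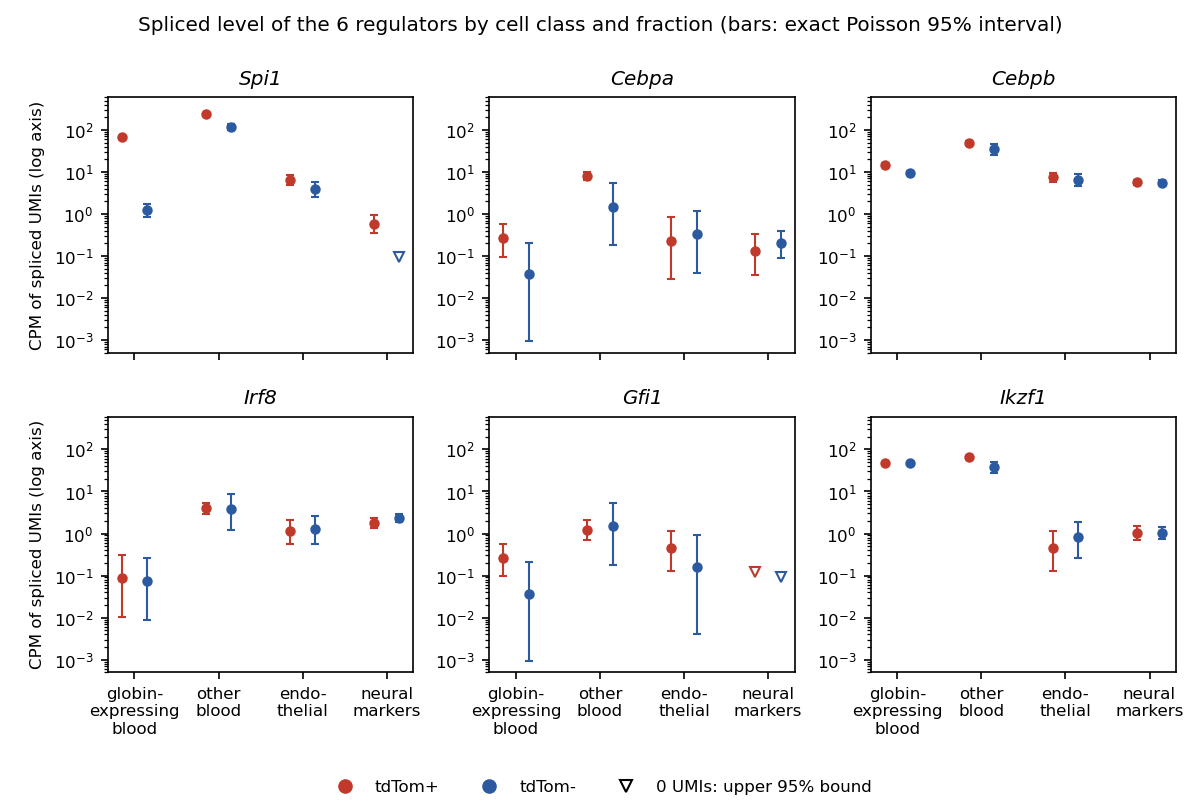
Spliced level of each regulator (CPM, log axis) in 4 cell classes; points are single libraries (red tdTom+, blue tdTom-), bars are exact Poisson 95% intervals and open triangles are upper bounds where 0 UMIs were counted. *Spi1* in globin-expressing cells stands at 67.2 CPM in tdTom+ against 1.21 CPM in tdTom-, whereas *Ikzf1* stands at 47.4 and 46.8 CPM.

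The higher *Spi1* level was present at every globin share that both fractions reached. With globin genes out of the denominator, cells between 0.694% and 2% globin had 82.7 CPM in tdTom+ (462 cells) against 6.96 CPM in tdTom- (38 cells, 4 UMIs), and the log2 fold was 3.57 (2.21 to 5.45). Between 2% and 5% the levels were 57.7 CPM (512 cells) and 2.77 CPM (152 cells, 7 UMIs), a fold of 4.38 (3.33 to 5.70). Between 5% and 10% they were 54.4 CPM (65 cells, 73 UMIs) and 0.872 CPM (580 cells, 9 UMIs), a fold of 5.96 (4.96 to 7.15). The point values fell with globin in both fractions up to that bin, and the groups' intervals did not overlap in any of the 3 bins. Above 20% globin, 32 tdTom- cells gave 12.4 CPM from 6 UMIs in 3 cells, of which 1 cell held 4.

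In the same bins *Gata1* gave log2 folds of -2.51, -2.24 and -1.81, and *Ikzf1* gave 0.49, -0.22 and -0.14. *Cebpb* gave -0.25, 0.54 and 1.18, the last with an interval of 0.52 to 1.80 and levels of 20.9 CPM in tdTom+ and 9.20 CPM in tdTom-. Beside *Spi1* it was the member that was at least 2-fold higher in a globin bin of tdTom+, in 65 cells.

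**Figure D2:**
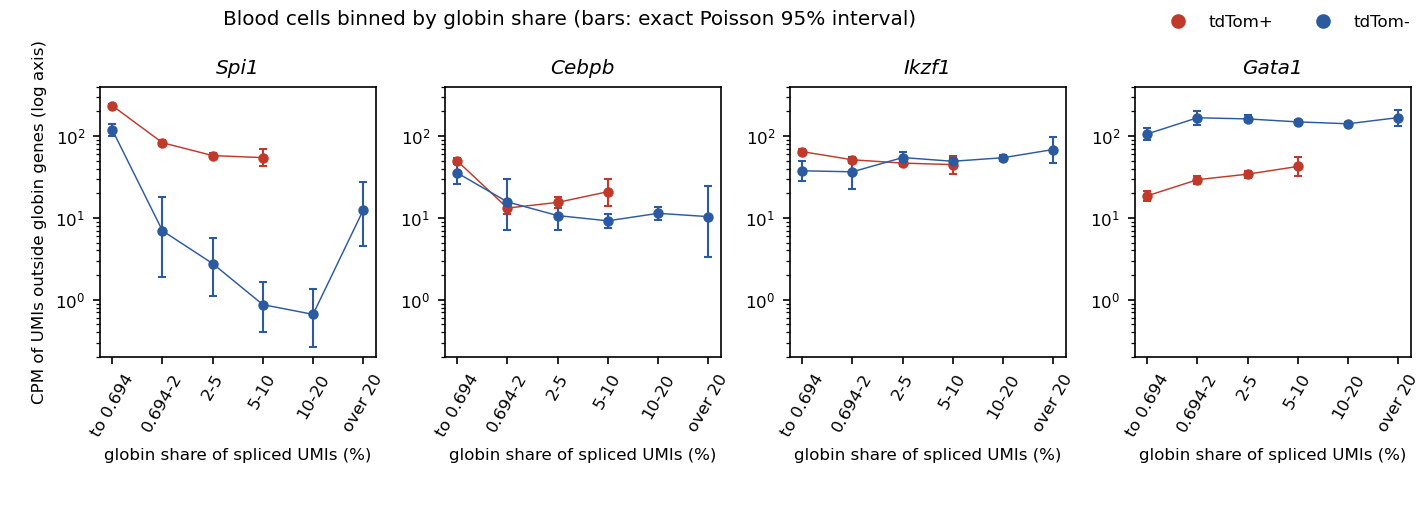
Level of *Spi1*, *Cebpb*, *Ikzf1* and *Gata1* (CPM of UMIs outside globin genes, log axis) in blood cells binned by the globin share of their spliced UMIs (percent); lines join bins of 1 library, red tdTom+ and blue tdTom-, and bars are exact Poisson 95% intervals. *Spi1* of tdTom+ cells stays between 54.4 and 82.7 CPM in the bins above 0.694% globin, while tdTom- cells lie at 6.96 CPM or less up to 20%.

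Unspliced *Spi1* molecules were seen in the same classes. In globin-expressing tdTom+ cells 83 unspliced UMIs made up 5.14% of the total, and in other blood cells 158 made up 5.28%. The tdTom- library had 6 in globin-expressing cells (15.4%) and 8 in other blood cells (4.82%). Its cells with neural markers also had 4 unspliced UMIs, with 0 spliced. That is 0.599 CPM of unspliced UMIs, against 2.04 in its globin-expressing cells. Of the 67 globin-expressing tdTom+ cells with an unspliced *Spi1* UMI, 83.6% also had a spliced one, against 41.5% of the 972 cells without. The corresponding shares in other blood tdTom+ cells were 94.8% of 97 and 69.8% of 480. In both classes of tdTom+ a spliced molecule was thus found more often in cells that also held an unspliced one.

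*Cebpa* was a gene of the other blood cells in tdTom+, whereas 3 of its 37 UMIs in the tdTom- library lay in blood. Globin-expressing cells held 6 UMIs in tdTom+ (0.263 CPM) and 1 in tdTom- (0.0368 CPM), which is no higher than the 0.130 and 0.205 CPM of the neural cells beyond counting error. Its level in other blood cells was 8.0 CPM in tdTom+ (97 UMIs) against 1.5 CPM in tdTom- (2 UMIs), a log2 fold of 2.41 (0.52 to 5.48). This was the 1 member of 5 tested in the class that was at least 2-fold higher, beside 2.56% of 8637 genes (4.13% were lower). The tdTom- value rests on 2 UMIs in 2 of 73 cells, and *Cebpa* passed the minimum through tdTom+ alone.

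*Cebpb* was present in every class. Globin-expressing cells held 14.4 CPM in tdTom+ against 9.42 CPM in tdTom- (log2 fold 0.61), and the levels were 49.4 and 35.3 CPM in other blood cells (0.49, 0.06 to 0.95). Neural cells held 5.70 and 5.53 CPM. Where that neural level was subtracted, *Cebpb* passed the 2-fold limit in the globin-expressing cells. No interval was computed after the subtraction, and the unsubtracted one was used for the call. All cells outside blood and endothelium held 6.52 and 10.1 CPM. Whether the neural level of *Cebpb* is free RNA was not tested.

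*Irf8* and *Gfi1* were rare. *Irf8* had 2 UMIs in each fraction's globin-expressing cells (0.0876 and 0.0736 CPM), which is under the floor of 3 counts. Neural cells held 1.76 and 2.30 CPM of it, more than the globin-expressing cells, so they give no level of free RNA for this gene. It was at 4.04 CPM in tdTom+ other blood cells (49 UMIs in 16 cells, up to 10 in a cell) against 3.75 CPM in tdTom- (5 UMIs in 3 cells), a fold of 0.11 (-1.21 to 1.79). *Gfi1* gave 6 and 1 UMIs in globin-expressing and 15 and 2 in other blood cells, with none in neural cells of either fraction. At this depth a difference of *Irf8* or *Gfi1* between the fractions was not detectable within either class.

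*Ikzf1* did not follow *Spi1* between the fractions in globin-expressing cells. Globin-expressing cells held 47.4 CPM in tdTom+ (1082 UMIs; 58.0% of cells) and 46.8 CPM in tdTom- (1272 UMIs; 55.6% of cells), a log2 fold of 0.02 (-0.10 to 0.14) that turned to -0.09 without globin UMIs in the denominator. For other blood cells the levels were 64.3 and 37.5 CPM (0.78, 0.36 to 1.22), higher in tdTom+ as *Spi1* was there (0.98). Endothelial and neural cells had 1.05 CPM or less, so the gene separated blood from both. Most of its molecules were unspliced, at 72.3% and 72.6% in globin-expressing and 69.7% and 67.7% in other blood cells.

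Of all UMIs in the tdTom+ library, blood cells held 87.8% for *Spi1*, 87.4% for *Ikzf1*, 70.1% for *Cebpa*, 70.0% for *Gfi1*, 49.97% for *Cebpb* and 27.3% for *Irf8*. In the tdTom- library the shares were 79.3% for *Spi1* and 80.9% for *Ikzf1*, but 8.11% for *Cebpa*, 19.3% for *Cebpb* and 4.05% for *Irf8*. These shares are of all UMIs of a library, cells called doublets included, which held 409 of the 4974 *Spi1* UMIs of tdTom+ and enter no class or sub-cluster.

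The sub-clusters were built without the 6 regulators and without the listed genes that are not cell type markers, while the 11 listed genes that are markers, among them *Gata2*, *Myb*, *Mpo* and *Fcer1g*, were kept. These levels describe groups made from the same cells and carry no test. In tdTom+, *Spi1* rose from 18.1 CPM in blood progenitor-like sub-cluster 0 (459 cells) through 40.4 CPM in 2 (378 cells), 53.6 CPM in 8 (269 cells) and 259 CPM in 5 (280 cells) to 502 CPM in the myeloid-like sub-cluster (193 cells). *Cebpa* was at 0.313 CPM or less in the first 3 of these, 2.58 CPM in sub-cluster 5 and 22.3 CPM in the myeloid-like cells. *Cebpb* held between 11.7 and 17.3 CPM in the 4 progenitor-like sub-clusters and 129 CPM in the myeloid-like one, and *Irf8* 0.249 CPM or less against 12.8 CPM. Sub-cluster 5 thus had a high *Spi1* level at a *Cebpb* level of 17.2 CPM (14.1 to 20.8), which overlapped sub-clusters 2 and 8 but lay above sub-cluster 0 (9.64 to 13.99). Its other markers differed too: 3 myeloid, 3 megakaryocyte and 0 erythroid markers were raised in it, against 0, 0 and 4 in each of sub-clusters 0, 2 and 8, and their part was not tested. Its 280 cells held 36.8% of the *Spi1* UMIs of tdTom+ blood cells, and the myeloid-like cells 42.3%. The myeloid-like sub-cluster was mixed as well. It had 7 myeloid markers raised, but also 6 blood progenitor, 5 megakaryocyte and 4 endothelial ones, and their part was not tested.

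In tdTom- blood, the 4 large erythroid-like sub-clusters had 0.42 to 2.42 CPM of *Spi1*, the megakaryocyte-like one 36.8 CPM (34 UMIs in 50 cells) and the myeloid-like one 314 CPM (24 cells). Within the myeloid-like sub-cluster, the log2 fold of tdTom+ over tdTom- was 0.68 for *Spi1* (0.41 to 0.95), 3.13 for *Cebpa* (0.61 to 8.45; 82 against 1 UMI), 0.45 for *Cebpb* (-0.03 to 0.98), 0.00 for *Irf8* and 1.04 for *Ikzf1* (0.31 to 1.86). The *Cebpa* value thus rests on 1 UMI in 24 tdTom- cells.

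An erythroid-like sub-cluster with *Cdkn1a*, a target of p53, as its first gene and globin genes and *Ccng1*, another p53 target, among the next held cells of both fractions. Its tdTom+ cells (32 cells, 58 UMIs) had *Spi1* at 106 CPM and its tdTom- cells (6 UMIs in 2 of 67 cells) at 5.31 CPM, a fold of 4.32 (3.11 to 5.82). Its mixture of classes differed, with 16 of the 32 tdTom+ cells but 2 of the 67 tdTom- cells being other blood cells. In its globin-expressing cells alone, a split added after the values were seen, *Spi1* was at 79.9 CPM (23 UMIs in 16 cells) and 5.49 CPM (6 UMIs in 65 cells), a fold of 3.86 (2.53 to 5.45). In the sub-cluster as a whole *Cebpb* was at 49.4 and 14.2 CPM (1.80, 0.86 to 2.79), and *Gfi1* had 4 UMIs in tdTom+ and 0 in tdTom-. With a floor of 3 counts in place of the 0, the *Gfi1* log2 fold was 1.46, which is not a lower limit. Its interval reached down to 0.45, and the value rests on those 4 UMIs. *Ikzf1* gave -0.72 and *Cebpa* and *Irf8* had 0 UMIs in both.

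**Figure D3:**
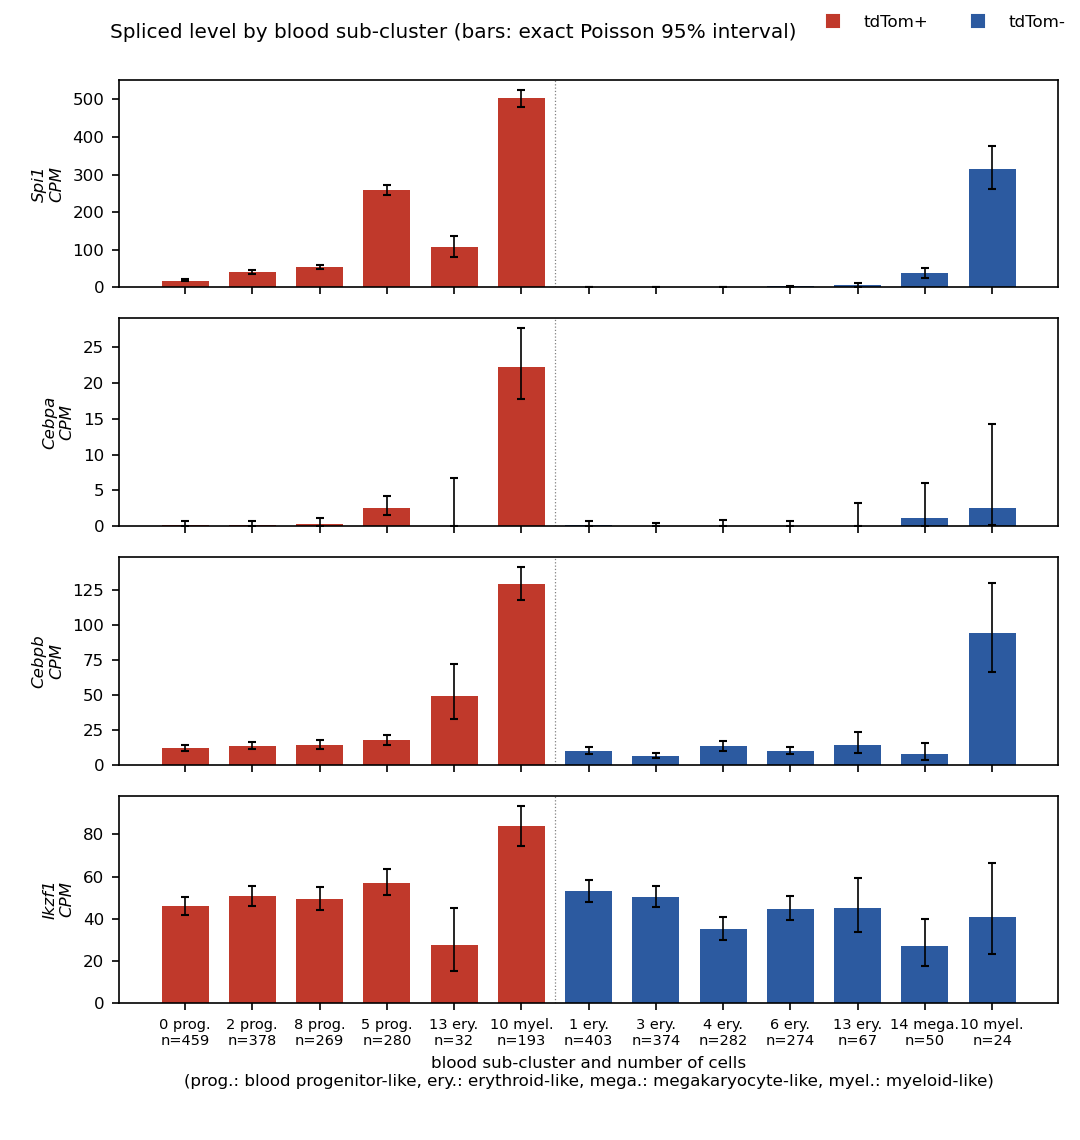
Spliced level (CPM, linear axis from 0) of *Spi1*, *Cebpa*, *Cebpb* and *Ikzf1* in each blood sub-cluster with at least 20 cells of a fraction, tdTom+ left (red) and tdTom- right (blue), with exact Poisson 95% intervals. *Spi1* is high in tdTom+ sub-clusters 5 (259 CPM) and 10 (502 CPM), but *Cebpa* and *Cebpb* stand out in the myeloid-like sub-cluster 10, at 22.3 and 129 CPM in tdTom+.

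Co-expression was read by comparing cells with at least 1 spliced *Spi1* UMI with cells that had none, within a class and fraction. Cells of 1 library are not replicates, so these are descriptions of that library. Among globin-expressing tdTom+ cells (459 with and 580 without), *Cebpb* was at 16.5 CPM with *Spi1* and 12.6 CPM without, a log2 fold of 0.39 (0.07 to 0.71). *Ikzf1* was at 52.9 and 42.7 CPM (0.31, 0.14 to 0.49). *Cebpa* had 4 UMIs in cells with and 2 in cells without *Spi1*, *Irf8* 0 and 2, and *Gfi1* 4 and 2. Neither of the 2 members with enough UMIs was at least 2-fold higher, beside 2.25% of all genes, and *Gata1* differed by -0.14 (0.14 in thinned cells). *Spi1* in globin-expressing cells was thus found with *Cebpa* at 4 UMIs and *Irf8* at 0 in 459 cells, and with *Cebpb* and *Ikzf1* levels less than 2-fold apart. In thinned cells, which have equal depth, *Ikzf1* was found in 27.6% of 217 cells with *Spi1* and 17.4% of 816 without, with intervals of 21.8% to 34.1% and 14.9% to 20.2%. *Cebpb* was found in 10.6% (6.84% to 15.5%) and 6.74% (5.12% to 8.68%), which overlap.

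Other blood tdTom+ cells differed in this. With *Spi1* (427 cells) *Cebpa* was at 10.6 CPM (95 UMIs) and without it (150 cells) at 0.637 CPM (2 UMIs), a log2 fold of 4.05 (2.16 to 7.12), 64th of 8413 genes by size. *Cebpb* was at 60.6 and 17.5 CPM (1.79, 1.39 to 2.22). *Irf8* had 49 UMIs with and 0 without *Spi1*, a log2 fold of 2.51 with a floor of 3 counts in place of the 0, which is not a lower limit. *Ikzf1* was at 67.3 and 55.4 CPM (0.28, 0.04 to 0.53), *Gfi1* had 13 and 2 UMIs, and *Gata1* was lower, at 13.4 against 33.4 CPM (-1.32, -1.71 to -0.93). By the rule, 2 of 3 members with at least 50 UMIs were higher, beside 9.79% of all genes, and *Cebpa*, one of them, reached 50 only through the cells with *Spi1*.

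Among thinned cells *Cebpb* was found in 25.8% of 302 cells with *Spi1* (21.0% to 31.2%) and 7.49% of 267 without (4.64% to 11.3%). *Cebpa* was found in 6.29% and in 0 of 267, which allows up to 1.37%, and *Gata1* in 5.63% and 13.1%. Of the 54 tdTom+ other blood cells with *Cebpa*, 53 had *Spi1* and 36 had *Cebpb*, and all 16 with *Irf8* had *Spi1*, 11 of them also *Cebpb*. Among all cells of the class 74.0% had *Spi1*. *Gfi1* overlapped *Cebpb* in 10 of its 11 cells, beside 38.8% of all cells of the class with *Cebpb*. It overlapped *Cebpa* and *Irf8* in none, beside 9.36% and 2.77% of all cells, too few to read an absence from 11 cells.

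The co-expression went with the myeloid-like sub-cluster. Of the tdTom+ other blood cells with 0, 1, 2 and 3 or more *Spi1* UMIs, 3.33%, 6.94%, 24.1% and 55.5% were myeloid-like. Across the same cells *Cebpb* was at 17.5, 12.4, 22.5 and 79.2 CPM, and *Cebpa* at 0.637, 0.653, 0 and 14.9 CPM. Without the myeloid-like sub-cluster, *Cebpb* no longer differed in that direction, with a log2 fold of -0.08 (-0.62 to 0.47; 242 against 145 cells), and compared within sub-clusters it was -0.06 (-0.62 to 0.50). *Cebpa* was at 2.07 (-0.03 to 5.25) and 1.75 (-1.32 to 4.81), with intervals that held 0. Without the myeloid-like cells *Cebpa* had 17 UMIs left and could not be called whatever its fold, and *Irf8* had 2. *Cebpb* had 126 left of the 599 in the class. Only 3.33% of the 150 cells without *Spi1* were myeloid-like. Neither setting can therefore show whether *Cebpb* follows *Spi1* among the myeloid-like cells. No member was higher by the rule in either way, beside 3.66% of all genes without the myeloid-like sub-cluster and 1.22% within sub-clusters. *Gata1* was lower in cells with *Spi1* in both, by -0.75 (-1.15 to -0.35) and -0.53 (-1.01 to -0.05).

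In the globin-expressing tdTom+ cells, only 3 of 1039 were myeloid-like. Their *Cebpb* level was 12.6, 12.4 and 12.02 CPM over 0, 1 and 2 *Spi1* UMIs and reached 22.4 CPM in the 184 cells with 3 or more, and *Ikzf1* rose over the same cells from 42.7 through 46.6 and 51.9 to 59.3 CPM. Median depth was 20976 UMIs in the cells with 0 and 23093 in those with 3 or more. The 125 globin-expressing tdTom+ cells of sub-cluster 5, with *Spi1* at 275 CPM, had *Cebpb* at 20.1 CPM and *Ikzf1* at 59.2 CPM. These steps over *Spi1* UMIs were not compared within sub-clusters. In the split by any *Spi1* UMI, the share of all genes called fell from 2.25% to 0.457% within sub-clusters. In the globin-expressing tdTom+ cells the summed level of the 8 myeloid markers was 36.5 CPM in the cells with *Spi1* and 2.28 CPM in those without, led by *Fcer1g*, with *Cx3cr1* and *Ptprc* at 0 in both and *Csf1r* at 0 in the cells with *Spi1* alone. Megakaryocyte markers were at 33.8 and 17.1 CPM there, mast cell markers at 31.1 and 17.3 CPM (nearly all *Cpa3*) and progenitor markers at 537 and 407 CPM. In other blood tdTom+ cells the myeloid sum was 531 CPM with and 14.3 CPM without *Spi1*, with all 8 markers found in cells with it. Endothelial markers (182 and 35.0 CPM), megakaryocyte markers (175 and 52.9 CPM) and progenitor markers (704 and 493 CPM) were also higher in those with *Spi1*, and erythroid markers lower (1793 and 3464 CPM). The part of these markers in the result was not tested.

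The tdTom- library allowed less. Among its globin-expressing cells 27 had *Spi1* and 1377 had none, *Cebpb* and *Ikzf1* differed by 0.12 and -0.09, and 0 of 2 members were called, beside 1.78% of all genes. Megakaryocyte (131 and 47.2 CPM), endothelial (45.9 and 17.7 CPM) and progenitor markers (66.3 and 36.2 CPM) were higher in the cells with *Spi1*. Myeloid markers had 1 UMI in the 27 cells and 24 in the 1377 (1.70 and 0.903 CPM), too few to compare. In the 73 other blood cells (46 with *Spi1*), *Cebpb* had 38 UMIs with and 9 without (45.8 and 17.9 CPM; 1.35, 0.28 to 2.59), *Irf8* 5 and 0, *Ikzf1* gave -0.26 and *Gata1* -1.12 (-1.62 to -0.62). Myeloid (411 and 126 CPM), endothelial (372 and 181 CPM) and progenitor markers (455 and 261 CPM) were higher and erythroid markers lower (1345 and 2909 CPM) in those with *Spi1*, and the part of the markers was not tested. The 1 member with at least 50 UMIs, *Ikzf1*, was not called, beside 2.07% of all genes, and *Cebpb* missed that minimum with 47 UMIs. Outside the myeloid-like sub-cluster *Cebpb* had 3 UMIs in these cells with and 7 without *Spi1*, and *Irf8* had 0 in both, too few to compare. Over the blood cells of both classes, 3 of 4 members were higher with *Spi1* in tdTom+, beside 7.97% of genes, and 1 of 2 in tdTom-, beside 11.5%, where cells with and without *Spi1* also differ in class.

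**Figure D4:**
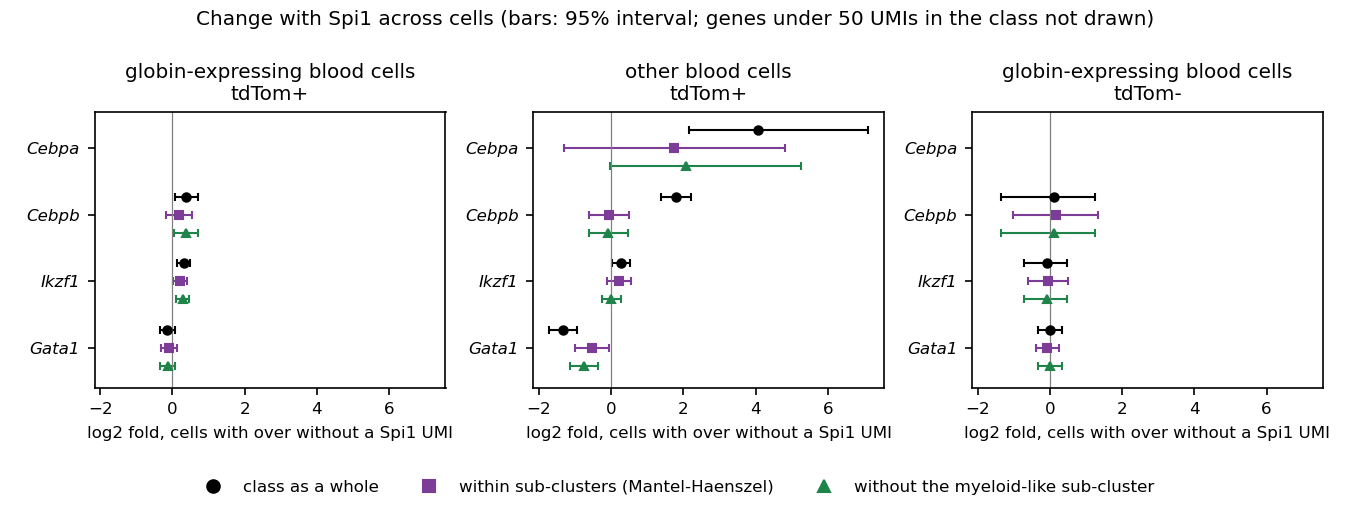
Log2 fold of the level in cells with over cells without a *Spi1* UMI, for genes with at least 50 UMIs in the class; black circles are the whole class, purple squares the value within sub-clusters (Mantel-Haenszel), green triangles the value without the myeloid-like sub-cluster, and bars 95% intervals. In tdTom+ other blood cells *Cebpb* moves from 1.79 to -0.06 and -0.08, and *Gata1* stays below 0.

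Counted together in thinned cells, 2 or more of the 6 regulators were seen in 20.9% (2), 6.50% (3) and 1.23% (4) of tdTom+ other blood cells, and 5 in 1 cell. In tdTom- other blood cells 7.25% held 2 and 2.90% held 3. Globin-expressing cells held 2 regulators in 8.03% of tdTom+ and 1.10% of tdTom- cells. None was seen in 60.6% of tdTom+ and 75.8% of tdTom- globin-expressing cells. Counted singly in the same thinned cells, *Spi1* was found in 21.0% of tdTom+ and 0.438% of tdTom- cells. *Ikzf1* was found in 19.6% and 19.9%, and *Cebpb* in 7.55% and 4.75%. A higher share of cells with *Spi1* by itself raises the share with 2 regulators. No share expected for independent genes was computed, so joint expression beyond the single shares was not tested in either class.

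Over all blood cells, the genes whose levels were most like that of *Spi1* were ranked by Pearson r of log values, which share the cells' depth and identity and are a description across cells. In tdTom+ (1616 cells, 8861 genes) these were *Tmsb4x* (0.757), which binds actin monomers, *Alox5ap* (0.715) of leukotriene synthesis, *Coro1a* (0.693), a leukocyte actin regulator, and *Fcer1g* (0.693), a signalling chain of Fc receptors. *Arpc1b* (0.690), *Tgfb1* (0.685), *Laptm5* (0.682), *Rac2* (0.679), *Celf2* (0.658) and *Cst3* (0.656) came next. After thinning to equal depth the first 4 were at 0.618, 0.539, 0.525 and 0.552. In tdTom- (1477 cells, 8118 genes) *Laptm5* (0.635), *Igfbp4* (0.625), *Ppp1r18* (0.609), *Arhgdib* (0.606), *Klk8* (0.592), *Arpc1b* (0.571), *Vim* (0.567), *Ctla2a* (0.564), *Hapln1* (0.562) and *Cmtm7* (0.547) led. After thinning these 10 were between 0.320 and 0.546. *Laptm5* and *Arpc1b* were in both lists.

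The other regulators were further down. In tdTom+ blood *Cebpb* was at 0.402 (168th), *Cebpa* at 0.349, *Ikzf1* at 0.237 (537th), *Irf8* at 0.193, *Gfi1* at 0.057 and *Gata1* at -0.206 (8567th). Thinning lowered *Cebpb* to 0.271, *Cebpa* to 0.249, *Irf8* to 0.166, *Ikzf1* to 0.165 and *Gfi1* to 0.031, and left *Gata1* at -0.070. In tdTom- blood *Irf8* was at 0.412, *Cebpb* at 0.295 (104th), *Cebpa* at 0.160, *Gfi1* at 0.147, *Ikzf1* at 0.020 (3061st) and *Gata1* at -0.171. These values depended on depth and on few cells: *Irf8* was found in 5 and *Cebpa* and *Gfi1* in 3 each of the 1477 cells. After thinning, *Irf8* was at 0.076, *Cebpb* at 0.079, *Ikzf1* at -0.031, *Gfi1* at 0.250 and *Gata1* at -0.075, and *Cebpa* had no UMI left. Within the tdTom- globin-expressing cells no gene passed 0.155.

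A list of 26 PU.1 target and myeloid effector genes, of which 7 are also myeloid markers, was set beside the regulators. In globin-expressing cells 14 had enough UMIs, and 10 were higher and 2 lower in tdTom+, beside 9.33% and 4.05% of all genes, with a median log2 fold of 2.45 beside 0.19 over all genes. *Mpo*, the granule peroxidase, had 73 UMIs against 1 (6.44), *Coro1a* 179 against 3 (6.15), *Laptm5* 938 against 35 (5.00) and *Fcer1g* 262 against 10 (4.96). Of the 16 tested in other blood cells 3 were higher and 3 lower, beside 2.56% and 4.13% of all genes, with a median of 0.29 beside -0.05. There *Csf2rb*, a cytokine receptor chain, and *Lyz2*, lysozyme, were lower in tdTom+ (-3.05 and -2.28), while *Mpo* and *Prtn3*, proteinase 3, were higher (2.27 and 2.08). Genes of the list such as *Mpo* and *Coro1a* passed the minimum through tdTom+ alone. With *Spi1* split by cell, 11 of 11 tested genes of the list were higher in globin-expressing tdTom+ cells that had *Spi1*, beside 2.25% of all genes (medians 2.80 and 0.03). In other blood tdTom+ cells 15 of 15 were, beside 9.79% (2.94 and 0.06). Genes such as *Fcer1g* passed the minimum through the cells with *Spi1* alone and had to differ. Its UMIs with and without *Spi1* were 242 and 20 in globin-expressing and 2579 and 28 in other blood tdTom+ cells. The list was not compared within sub-clusters, where the share of all genes fell to 0.457% and 1.22% in these 2 classes. For tdTom- the counts were 2 of 6 in globin-expressing cells, beside 1.78%, and 6 of 7 in other blood cells, beside 2.07%.

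Of 19 relatives of the regulators, 10 were tested in globin-expressing cells, and 4 were higher and 0 lower, beside 9.33% and 4.05% of all genes (median 0.44 beside 0.19). These were *Ikzf2* (2.70; 59.9 against 9.23 CPM), *Ikzf4* (1.73), *Irf2* (1.18) and *Cebpd* (1.05). *Ikzf2*, which encodes the IKAROS relative HELIOS, thus differed between the fractions where *Ikzf1* gave 0.02. Of the relatives tested in other blood cells, 0 of 8 were higher or lower, beside 2.56% and 4.13% (median 0.20 beside -0.05).

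Of 24 other blood regulators, 7 of 18 tested were higher and 3 lower in globin-expressing cells, beside 9.33% and 4.05% of all genes (median 0.66 beside 0.19). *Gata2* (5.83; 126 against 2.21 CPM) and *Myb* (4.49), both factors of early blood progenitors, led, with *Mef2c* (2.98) and *Fli1* (2.34), a megakaryocyte and endothelial ETS factor. Of those tested in other blood cells 2 of 17 were higher and 3 lower, beside 2.56% and 4.13% (median -0.25 beside -0.05), with *Gata1* at -2.51, *Gata2* at 1.79, *Meis1* at -1.35 and *Id2* at -1.15. Markers of several cell types also differed between the fractions, some in the direction of *Spi1* and some in the other. In globin-expressing cells the summed level of the progenitor markers was 468 CPM in tdTom+ and 36.9 CPM in tdTom-, with all 7 found in both. Myeloid markers were at 18.1 and 0.920 CPM, mast cell markers at 23.7 and 0 CPM (540 *Cpa3* UMIs against 0), erythroid markers at 25014 and 99112 CPM, megakaryocyte markers at 24.8 and 49.0 CPM and endothelial markers at 7.58 and 18.3 CPM. In other blood cells tdTom+ had more of the progenitor (649 and 382 CPM) and myeloid markers (397 and 303 CPM) and less of the megakaryocyte (143 and 586 CPM) and endothelial ones (144 and 300.3 CPM). The part of these markers in the result was not tested.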

How the data were processed

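Cells of 6 pooled chimeric embryos were sorted into 1 tdTom+ and 1 tdTom- library (10x droplets). Reads were mapped to mm10 by the authors (Cell Ranger 3.0.2), cells were called with emptyDrops and barcodes of low quality removed by mixture models. The spliced and unspliced UMI counts of velocyto were deposited unnormalized, and every count was whole. The authors also deposited the percent of mitochondrial UMIs (medians 2.07% in tdTom+ and 2.08% in tdTom-).

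Scrublet, run per library, called 395 tdTom+ (4.40%) and 534 tdTom- cells (5.77%) doublets, which were left out with 1 cluster, leaving 8560 and 8710 cells. Cells were clustered with scanpy 1.11.5 (Leiden, resolution 1.5, then 1 for haemato-endothelial cells) without 64 genes, which are the 6 regulators and the listed genes that are not cell type markers. A cluster needed at least 3 markers raised at least 2-fold for a name. Cell types of the authors were not used here, so rebuilt names can differ from theirs. UMIs were summed per class and given as CPM, with exact Poisson, Clopper-Pearson and conditional 95% intervals. A gene was called higher or lower at 2-fold with an interval that excludes 0, for genes holding 50 or more UMIs in the class. A fold against 0 UMIs used a floor of 3 counts over the group. Shares were also read in cells thinned to 5000 UMIs. The analysis code was tested on simulated data. The genes named are the 6 regulators, *Gata1*, the 10 genes most like *Spi1* in each fraction (among genes in at least 5% of cells) and up to 4 genes per list and class with the largest fold past the threshold. *Cdkn1a*, *Ccng1*, *Cpa3*, *Cx3cr1*, *Ptprc*, *Rhox5*, *Mt2* and *Trap1a*, named beside a cluster or a marker list, were chosen after their values were seen. Regulators, lists and settings were chosen with earlier results of these data known. Gene positions come from the GENCODE annotation of GRCm38, and promoter sequences from RefSeq. Alternatives covered the denominator, the layer, thinning, the globin limit, free RNA, doublets, the myeloid-like sub-cluster, *Spi1* by 2 UMIs or by unspliced UMIs, and comparison within sub-clusters.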

Additional observations from a re-analysis of the deposited data

How the results depend on the processing

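The log2 fold of *Spi1* in globin-expressing cells stayed between 5.503 and 6.02 under every alternative run. In other blood cells it was 1.79 with the globin limit at 5% and 1.71 without the myeloid-like sub-cluster. The number of members at least 2-fold higher in tdTom+ was 2 in globin-expressing cells (*Spi1* and *Cebpb*) with the 5% limit (beside 6.17% of all genes) and with the neural level subtracted (6.44%), instead of 1 (9.33%). Calls after that subtraction used the unsubtracted interval. In other blood cells it was 2, instead of 1, with unspliced UMIs added (*Spi1* then at 1.00; 2.79% of all genes), in cells thinned to 5000 UMIs (*Spi1*, *Ikzf1*; 2.38%) and with the 5% limit (*Spi1*, *Cebpa*; 4.37%). The number of members higher in cells with *Spi1* became 1 in globin-expressing tdTom+ cells with the 5% limit (*Ikzf1*; 0.600% of all genes), 1 in globin-expressing tdTom- cells when 2 UMIs of *Spi1* were asked for (*Ikzf1*, from 4 cells; 2.89%), and 1 in tdTom- other blood cells with the 5% limit (*Cebpb*; 6.21%). In tdTom+ other blood cells it fell from 2 to 1 (*Cebpb*) after thinning, and to 0 both without the myeloid-like sub-cluster and within sub-clusters, while the share of all genes fell from 9.79% to 5.97%, 3.66% and 1.22%. In the last 2 settings the *Cebpb* fold turned to -0.0835 and -0.0610. Apart from what the alternatives' own construction removes (cells or UMIs), the cause was not tested. Of 62 alternative values of these main results, 49 moved by less than the limits used. Of 288 values for single genes 220 did and 66 moved further. These single genes are the regulators, with *Spi1* left out as a main result, *Gata1* and the named genes of the lists. The sign changed in 16, of which 2 (the *Cebpb* folds above) had been called, and 14 had not been, among them the *Ikzf1* fold between fractions in globin-expressing cells. With 1 library per fraction no library could be left out. No paired analysis was possible because each fraction is 1 library and no test was run. Depth limits *Irf8*, *Gfi1* and, in tdTom-, *Cebpa*.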

Other observations

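Outside blood, *Cebpb* was highest in a cluster of 75 tdTom- cells and 1 tdTom+ cell that was led by *Rhox5*, *Mt2* and *Trap1a* and stayed unnamed. These 75 cells held 350 *Cebpb* UMIs (181 CPM), which is more than the 303 UMIs of all tdTom- blood cells. *Cebpa* was at 2.07 CPM there, from 4 UMIs.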
